A study of Rattus norvegicus with 8 samples.

Results

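The axon regeneration effector genes comprised 10 genes known to rise in sensory neurons whose axons have been cut, or in the cells around them: Gap43, Sprr1a, Basp1, Stmn4, Ecel1, Gadd45a, Fst, Csf1, Arg1 and Anxa1. A gene was counted as measured if a probe set carried its symbol alone in the annotation of the array, the brightest standing for a gene with several. By this rule 9 of the 10 genes were measured, each by 1 probe set, out of 28826 probe sets covering 14497 genes with a symbol of their own. Sprr1a, a protein of the cornified envelope of skin that axotomized sensory neurons also make, was matched to no probe set and is named only.

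RNA came from the injured L5 dorsal root ganglion (DRG) of adult male Wistar rats, collected 14 days after the L5 spinal nerve had been ligated and transected. The first group held 4 samples from rats given MS-275, a class I histone deacetylase inhibitor (HDACI), at 30 nmol per day through an intrathecal catheter and osmotic pump. The second held 4 samples from rats given the vehicle, a solution of dimethyl sulfoxide in saline, by the same route. All 8 samples came from injured ganglia and no uninjured ganglion was included here, so the size of the injury response itself cannot be read from these values. Each comparison asks only whether values in injured ganglia differed between inhibitor and vehicle. By Western blot of 1 acetylated histone residue the study saw no clear difference between L5 ganglia of treated and vehicle rats. By chromatin immunoprecipitation it found no significant change of that mark in the ganglion at any promoter tested. The study's methods call the samples biological replicates and do not say whether each held the ganglion of 1 animal. In such bulk tissue, fewer cells of a type and less RNA per cell cannot be told apart.

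When a peripheral axon is severed, the cell body in the DRG switches on a program of genes that supply the growth cone, alter stress signalling and send signals to neighboring cells. Gap43 and Basp1 are abundant proteins on the inner face of the growth cone membrane, and Stmn4 binds tubulin. Ecel1 is a membrane metallopeptidase first described as a neuronal gene induced by nerve damage, and Gadd45a is a stress response gene. Fst encodes follistatin, which neutralizes activin, Csf1 encodes the ligand of the macrophage and microglial receptor Csf1r, Arg1 converts arginine to ornithine on the way to polyamines, and Anxa1 is a phospholipid-binding protein with anti-inflammatory actions.

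The median log2 value of an array was 8.13 to 8.16, and arrays correlated at 0.991 to 0.997. Several marker lists differed between single arrays. Skeletal muscle genes, scored as their mean deviation from the average of all arrays, stood at 2.52, 1.56 and 0.67 (log2) in vehicle replicates 1, 2 and 4, against -1.09 in vehicle replicate 3 and -1.20 to -0.78 in HDACI. All 15 measured muscle genes were lower in HDACI past an unadjusted p of 0.05 by limma, beside 1.93% of all probe sets. Their median was -1.83 and none passed adjustment. Exact permutation p was 0.0286 to 0.143 for these genes, and the groups overlapped for all but 1 of them, Pygm. HDACI replicate 4 was highest for macrophage genes (0.45) and for fibroblast and meningeal genes (0.36) and lowest for Schwann cell genes (-0.31). Vehicle replicate 4 had the highest sensory neuron score (0.27). Most of it came from the nociceptor genes Calca (11.92, against 9.91 to 10.35 in the other arrays) and Scn10a (10.06, against 8.24 to 8.74). The other neuron markers stood both above and below their means there. Of the 15 sensory neuron markers looked for, 12 were measured, all 12 of them above the 30th percentile of probe set means.

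None of the 9 measured genes differed between HDACI and vehicle beyond the spread of the replicates. Gap43, Basp1, Stmn4, Ecel1 and Gadd45a were lower in HDACI by 0.07 to 0.14 on the log2 scale, and Fst, Csf1, Arg1 and Anxa1 were higher by 0.07 to 0.14. By limma the unadjusted p was between 0.138 and 0.375, and the adjusted p was 1.0 for every one of them. With an adjusted p under 0.05, 0 of 28826 probe sets passed (0%), and at an unadjusted p under 0.05 it was 3.55% of probe sets, against 0 of these 9 genes. Exact permutation tests of the single genes, two-sided over 70 relabellings with 0.0286 as the smallest possible p, gave 0.171 to 0.514. Lower values in HDACI were found for 5 of 9 genes, beside 46.7% of all probe sets. The median difference of the 9 was -0.07, against 0.01 over all probe sets. As no gene lay between -0.07 and 0.07, this median is the value of Gadd45a and does not show a shift of the list. In absolute size the median difference was 0.10, against 0.05 over all probe sets, which was not tested.

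**Figure D1:**
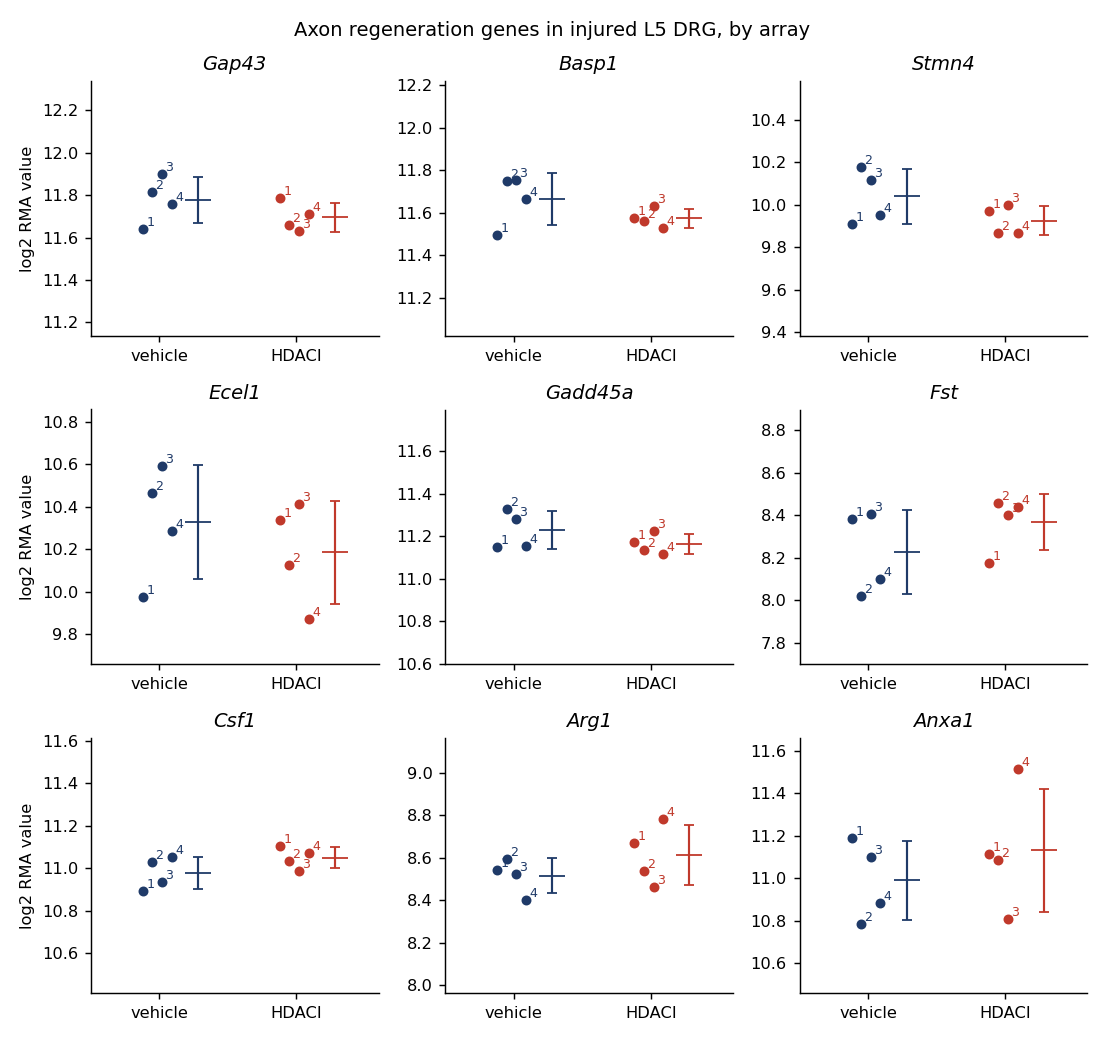
Each panel plots 1 gene, with the log2 RMA value of every array on the y axis, with dark blue for vehicle and red for HDACI, numbered by replicate; bars give the mean and SD of n = 4. All panels span the same log2 range, the groups overlap for each gene, and Ecel1 and Anxa1 spread most.

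Gap43, a substrate of protein kinase C that marks growing axons, measured 11.78, 11.66, 11.63 and 11.71 in HDACI replicates 1 to 4. In vehicle replicates 1 to 4 it measured 11.64, 11.81, 11.90 and 11.76. The lowest vehicle array thus lay beside the 2 lowest HDACI arrays, while vehicle replicates 2 and 3 lay above every HDACI array. The difference was -0.08 ± 0.06 (log2, SE), or 0.945-fold with a 95% confidence interval of 0.854 to 1.05. Basp1, also called CAP-23, measured 11.58, 11.56, 11.63 and 11.53 in HDACI and 11.49, 11.75, 11.76 and 11.66 in vehicle. Vehicle replicates 2, 3 and 4 lay above every HDACI array, whereas vehicle replicate 1 was the lowest of all 8. Its difference was -0.09 ± 0.07.

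Stmn4, the stathmin also known as RB3, measured 9.97, 9.87, 9.998 and 9.87 in HDACI and 9.91, 10.18, 10.12 and 9.95 in vehicle. HDACI replicates 2 and 4 lay below all vehicle arrays and the other HDACI arrays lay among them, which gave a difference of -0.11 ± 0.07. Gadd45a, whose product acts in growth arrest and the response to DNA damage, measured 11.17, 11.14, 11.22 and 11.12 in HDACI. In vehicle it measured 11.15, 11.33, 11.28 and 11.15, so that vehicle replicates 1 and 4 fell inside the HDACI range. The difference was -0.07 ± 0.06. Ecel1 varied more than these, with 10.34, 10.12, 10.41 and 9.87 in HDACI and 9.97, 10.47, 10.59 and 10.29 in vehicle. HDACI replicate 4 and vehicle replicate 1 were the lowest of their groups, and the difference of -0.14 ± 0.15 was smaller than its own error.

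Among the genes with higher means in HDACI, Fst measured 8.17, 8.46, 8.40 and 8.44 in HDACI and 8.38, 8.02, 8.41 and 8.10 in vehicle. Both groups held arrays at the low and the high end, and the difference was 0.14 ± 0.10. Csf1 had a narrow spread, with 11.11, 11.03, 10.99 and 11.07 in HDACI against 10.89, 11.03, 10.93 and 11.05 in vehicle. HDACI replicates 1 and 4 lay above every vehicle array, and the difference was 0.07 ± 0.05. For Arg1 the values were 8.67, 8.54, 8.46 and 8.78 in HDACI and 8.54, 8.59, 8.52 and 8.40 in vehicle, a difference of 0.10 ± 0.08. Here too HDACI replicates 1 and 4 stood above the vehicle arrays. Anxa1 measured 11.12, 11.08, 10.81 and 11.51 in HDACI and 11.19, 10.79, 11.10 and 10.88 in vehicle. A single array, HDACI replicate 4, lay outside the vehicle range, and the difference was 0.14 ± 0.15.

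For every one of the 9 genes the 95% interval, taken per gene and not adjusted for the number of genes, lay within a 1.5-fold change in either direction. The widest were those of Ecel1 (0.712- to 1.15-fold) and Anxa1 (0.876- to 1.39-fold), and the narrowest was that of Csf1 (0.969- to 1.14-fold). Groups overlapped for all 9 genes. Non-overlapping groups were found for 2.1% of all probe sets.

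**Figure D2:**
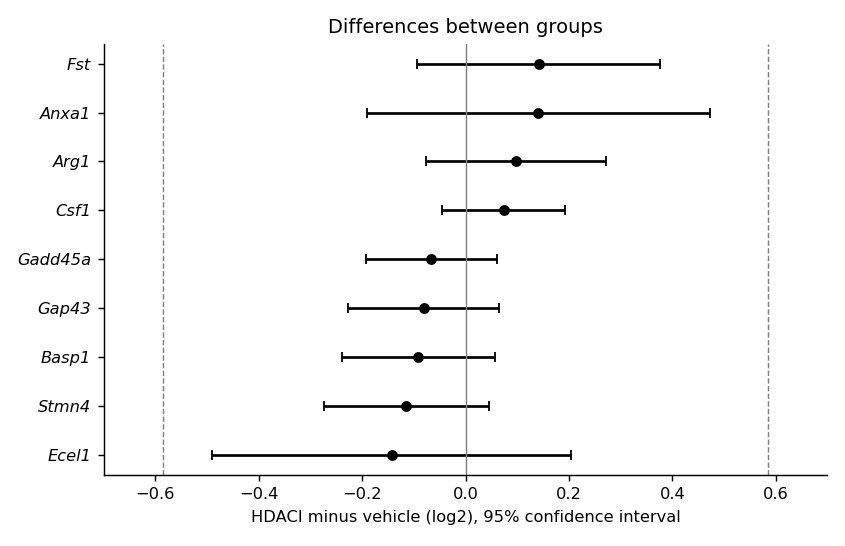
Points give the difference HDACI minus vehicle (x axis, log2) of each measured gene (y axis) with its 95% confidence interval from limma, n = 4 per group, and dashed lines mark 1.5-fold. All 9 intervals include 0 and lie within the dashed lines.

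Single arrays moved these sizes both ways. With each array left out in turn, Gap43 differed by -0.13 to -0.04, Basp1 by -0.15 to -0.06, Stmn4 by -0.16 to -0.07, Ecel1 by -0.26 to -0.04 and Gadd45a by -0.09 to -0.03. The values nearest 0 were those without vehicle replicate 3 for Gap43 and Basp1, without vehicle replicate 2 for Stmn4 and Gadd45a, and without HDACI replicate 4 for Ecel1. Fst differed by 0.07 (without vehicle replicate 2) to 0.21, Csf1 by 0.05 (without vehicle replicate 1) to 0.10, Arg1 by 0.04 to 0.15 and Anxa1 by 0.01 to 0.25, the last 2 lowest without HDACI replicate 4 and highest without HDACI replicate 3. Without vehicle replicate 1, the array with most muscle signal, Basp1 differed by -0.15 (unadjusted p = 0.0170), Stmn4 by -0.16 (0.0501) and Gap43 by -0.13 (0.0602), with an adjusted p of 0.809 by limma for each, and 6.1% of all probe sets passed an unadjusted p of 0.05 in that setting. After adjustment for the skeletal muscle score Gap43 differed by -0.20 (unadjusted p = 0.0315), Basp1 by -0.19 (0.0494) and Ecel1 by -0.37 (0.0934), where 4.1% of all probe sets passed. That score itself differed between the groups, and the fit takes the same slope in both. For Basp1 and Ecel1 its correlation had opposite signs in HDACI and vehicle, so these sizes depend on that slope. Without HDACI replicate 4, the array highest in macrophage and fibroblast genes, Anxa1 differed by 0.01 and Ecel1 by -0.04. In the marker lists, 11 of 12 sensory neuron genes were lower in HDACI, beside 46.7% of all probe sets. Higher in HDACI were 10 of 10 macrophage genes and 7 of 7 fibroblast and meningeal genes, beside 15374 of all 28826 probe sets. Past an unadjusted p of 0.05 by limma were 0 members of these 3 lists, beside 3.55% of all probe sets, and the counts of directions were not tested. The neuron score ranged from -0.15 to -0.0007 in HDACI and from -0.10 to 0.27 in vehicle, and the macrophage score from -0.17 to 0.45 and from -0.14 to 0.12. The fibroblast and meningeal score ranged from -0.10 to 0.36 in HDACI and from -0.29 to 0.13 in vehicle. In HDACI replicates 1 to 3 the macrophage score was -0.17, -0.15 and 0.08, and the fibroblast and meningeal score -0.10, 0.04 and 0.03. The high ends in HDACI were thus those of replicate 4. Cd68, for example, stood at 11.50 there, against 10.23 to 10.88 in the other HDACI arrays and 10.41 to 10.98 in vehicle. How many genes stay higher without that array was not counted. With the neuron score as a covariate Anxa1 differed by 0.01, Fst by 0.05, Arg1 by 0.04 and Ecel1 by -0.07, while Csf1 differed by 0.11 (unadjusted p = 0.0683) and Stmn4 by -0.11. In vehicle replicate 4 that score came mostly from Calca and Scn10a. With the macrophage score Anxa1 and Ecel1 differed by 0.07 and -0.07 and Csf1 by 0.08.

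Across the 8 arrays Basp1, Stmn4, Ecel1 and Gadd45a varied together, and Gap43 was close to them in the 4 vehicle arrays. These 5 genes are the members lower in HDACI, a grouping made after the values had been seen, which favors positive coefficients over all arrays. Their 10 pairs all correlated positively, at 0.61 to 0.98 with a median of 0.84. After each group's mean had been removed the coefficients were 0.50 to 0.98. With the other genes of this grouping Gap43 had r of 0.75 to 0.99 in vehicle and -0.42 to 0.02 in HDACI. That contrast was not tested, and none of the pairs of Gap43 passed adjustment. The HDACI coefficients are of 4 arrays and leaned on HDACI replicate 3. There Gap43 lay 0.11 below its mean, its lowest of all arrays, while the other genes of the grouping had their highest HDACI values. With each group's mean removed, the coefficients of Gap43 with them were 0.50 to 0.68. Each of the 5 genes reached r above 0.5 with 15.3% to 23.7% of 11535 other genes. The 20 pairs between the 5 genes and the other measured genes had a median of -0.38. For the 6 pairs among Fst, Csf1, Arg1 and Anxa1 the median was 0.28. Vehicle replicates 2 and 3 were the 2 highest arrays for Gap43, Basp1, Stmn4, Ecel1 and Gadd45a alike. HDACI replicate 4 and vehicle replicate 1 were the 2 lowest for Basp1 and Ecel1.

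**Figure D3:**
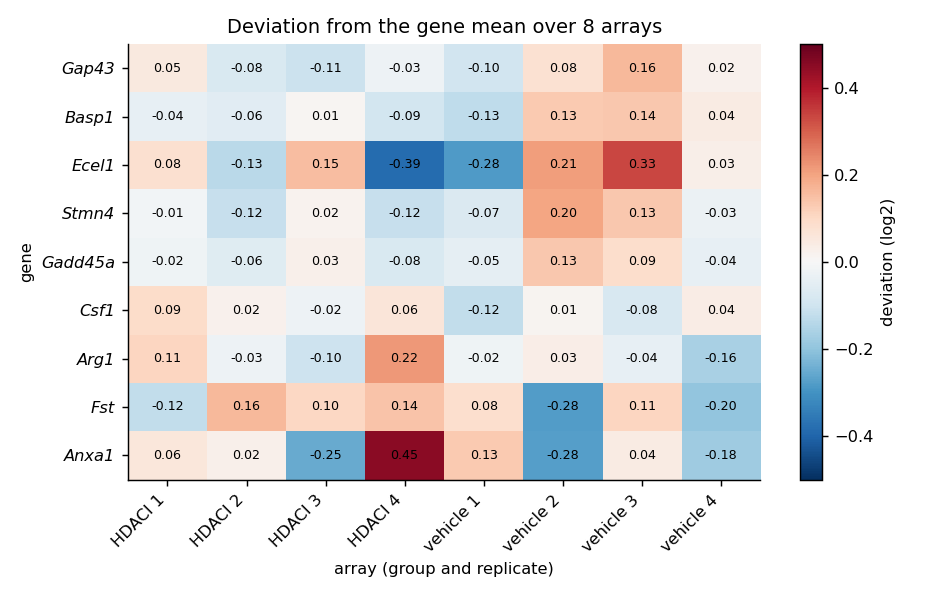
The color and number in each cell give the deviation of 1 gene (y axis) on 1 array (x axis) from its mean over all 8 arrays, in log2 units. The upper 5 genes are high together in vehicle replicates 2 and 3, while Anxa1 is highest in HDACI replicate 4 at 0.45.

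The closest pair was Stmn4 and Gadd45a, a tubulin-binding protein and a stress response gene. Pearson's r was 0.984 (exact permutation p = 2.48e-05, the smallest that 8 arrays allowed here, adjusted p = 0.000893 over 36 pairs). Spearman's rho was 1.0 (exact permutation p = 4.96e-05, adjusted p = 0.00179), so both genes put the 8 arrays in the same order. Within the groups r was 0.953 in HDACI and 0.992 in vehicle. Without the 2 arrays farthest from the median of Stmn4 it was 0.907, and with each array left out in turn it lay between 0.969 and 0.992. Of 11535 other genes compared, 0 reached this coefficient with Stmn4 and 1, Shd, reached it with Gadd45a.

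Basp1 followed the same arrays less closely. Its r was 0.900 with Stmn4 (rho 0.833), 0.890 with Ecel1 (rho 0.905) and 0.868 with Gadd45a (rho 0.833). The exact permutation p was 0.00350, 0.00412 and 0.00548 for r (adjusted p = 0.0493 each over 36 pairs) and 0.0154, 0.00456 and 0.0154 for rho (adjusted p = 0.0923, 0.0411 and 0.0923). Without the 2 farthest arrays r was 0.665, 0.816 and 0.532. These 3 did not pass with any 1 array left out, nor after centring arrays on their medians (adjusted p = 0.0521, 0.0521 and 0.0583). Among the 11535 other genes, 1.88%, 2.25% and 3.09% correlated with Basp1 at least as highly. Stmn4 and Ecel1 reached r = 0.846 (exact permutation p = 0.00938, adjusted p = 0.0675) with rho 0.952 (exact permutation p = 0.00114, adjusted p = 0.0137). Ecel1 and Gadd45a reached r = 0.826 (exact permutation p = 0.0120, adjusted p = 0.0723), also with rho 0.952 (adjusted p = 0.0137). Without the 2 farthest arrays, r was 0.874 and 0.848.

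Gap43, a classical marker of axonal growth, was close to the others in vehicle. With Basp1 its r was 0.752 over all arrays (rho 0.690, exact permutation p = 0.0340 and 0.0694, adjusted p = 0.170 and 0.299) and 0.809 without the 2 farthest. In the 4 vehicle arrays r was 0.947 and in the 4 HDACI arrays it was -0.425, a difference that was not tested. The corresponding values with Ecel1 were 0.99 and -0.0809. HDACI replicate 3, the lowest of all arrays for Gap43, was the highest HDACI array for Basp1, Stmn4, Ecel1 and Gadd45a.

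Anxa1 had negative coefficients with all 5 of these genes, none past adjustment. Its r was -0.718 with Ecel1 (rho -0.643, exact permutation p = 0.0424 and 0.0962, adjusted p = 0.170 and 0.315), and without the 2 arrays farthest for Ecel1, which were HDACI replicate 4 and vehicle replicate 1, it was -0.173, so the relation rested on these. For the other 4 genes the coefficient without their 2 farthest arrays lay further from 0, at -0.791 against -0.630 for Basp1, -0.751 against -0.599 for Stmn4, -0.762 against -0.603 for Gadd45a and -0.527 against -0.0936 for Gap43. With Arg1 the r of Anxa1 was 0.729 (rho 0.548, exact permutation p = 0.0411 and 0.171, adjusted p = 0.170 and 0.410), and 0.254 without the 2 arrays farthest for Arg1. Csf1 correlated with none of the others past an adjusted p of 0.05 in either measure.

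**Figure D4:**
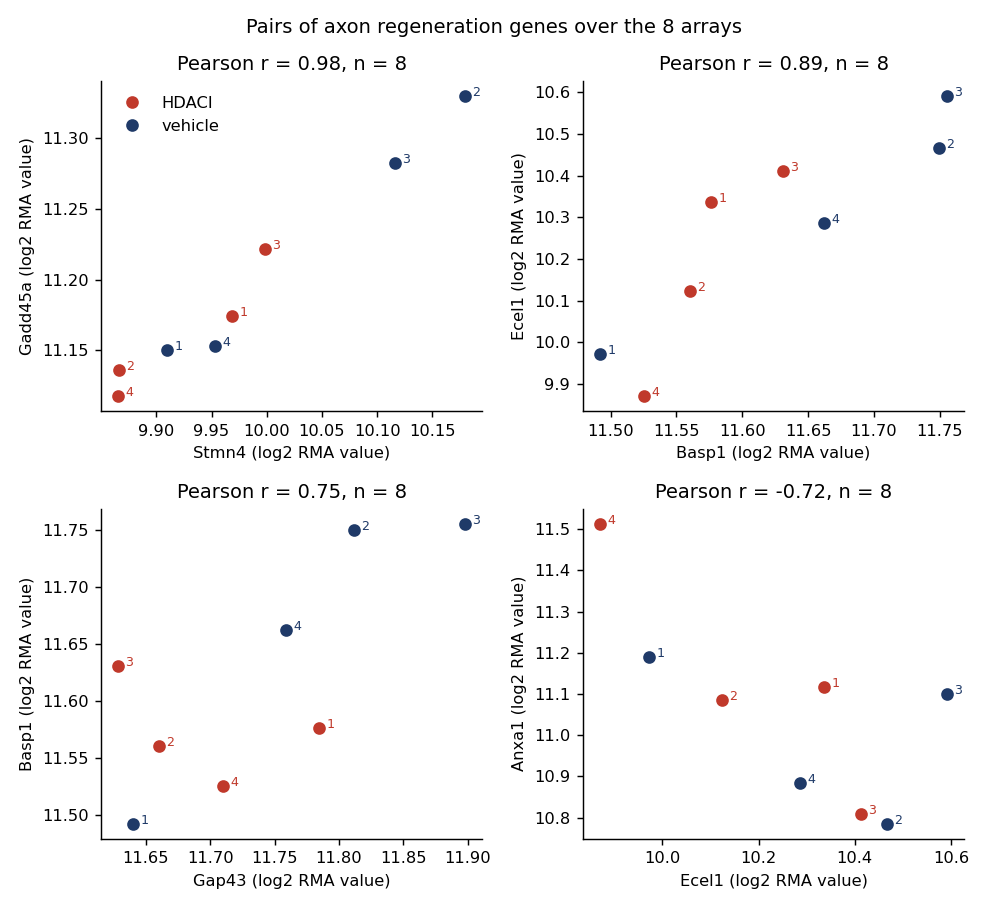
Each panel sets the log2 RMA values of 2 genes against each other over the 8 arrays, with red for HDACI and dark blue for vehicle, numbered by replicate. Stmn4 and Gadd45a lie close to a line at r = 0.98, Gap43 and Basp1 have r = 0.95 in vehicle and -0.42 in HDACI, and HDACI replicate 4 lies apart in the panel of Ecel1 and Anxa1.

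Genes whose pattern was most like that of each measured gene were sought among the 11535 others with a symbol of their own and a mean at or above the 30th percentile. These were chosen as the highest of many coefficients over 8 arrays and carry no test. For Gap43 they were Marchf5 (r = 0.973) and Kifap3 (0.959), for Basp1 the potassium channels Kcnk10 (0.988) and Kcna6 (0.986), and for Ecel1 Bcat1 and Frs3 (0.989 each). Stmn4 was nearest to the microtubule-binding protein Clasp1 (0.977) and Tbc1d9 (0.976), and Gadd45a to Shd (0.985) and Tbc1d9 (0.972). Tbc1d9 was among the nearest genes of both Stmn4 and Gadd45a. As their own r was 0.984 over the same arrays, a gene near one had to lie near the other, and this adds nothing to their relation. Fst was nearest to Lmo7 (0.983) and Crispld1 (0.980), Csf1 to C9h6orf141 (0.938) and Khdc4 (0.934), and Arg1 to Cxxc1 (0.979) and Zdhhc6 (0.978). The nearest genes of Anxa1 were Mgat1 (0.992) and Sulf1 (0.979). Csf1 had the fewest genes in step with it, as 7.79% of the 11535 reached r above 0.5, against 15.1% to 23.7% for the other 8.

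Windows before annotated starts of Basp1, Gadd45a and Ecel1, which followed the same arrays, and of Anxa1, whose coefficients with them were negative, are shown. Sequences of 5 of the 10 genes were found, taken from RefSeq on GRCr8, and each run below gives the 250 bases before the annotated start, 5′ to 3′ on the coding strand. Capitals mark matches on either strand to 1 of 5 motifs, which were GGGCGG (bound by SP1), TATAAA (the TATA box), TGANTCA (AP-1, bound by Jun), TGACGTCA (the cyclic AMP response element) and TTCNNNGAA (STAT).
Basp1, chr2:77594298-77594547, minus strand: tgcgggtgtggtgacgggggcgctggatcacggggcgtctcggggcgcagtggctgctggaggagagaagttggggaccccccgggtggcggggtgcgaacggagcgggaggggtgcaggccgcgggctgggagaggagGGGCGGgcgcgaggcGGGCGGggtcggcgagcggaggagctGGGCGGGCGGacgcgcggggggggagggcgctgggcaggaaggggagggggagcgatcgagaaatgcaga
Gadd45a, chr4:97486800-97487049, minus strand: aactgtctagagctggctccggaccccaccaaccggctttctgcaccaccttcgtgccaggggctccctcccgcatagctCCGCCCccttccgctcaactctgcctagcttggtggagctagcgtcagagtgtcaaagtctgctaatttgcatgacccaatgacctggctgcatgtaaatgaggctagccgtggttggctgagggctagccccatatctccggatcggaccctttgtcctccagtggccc
Ecel1, chr9:95274573-95274822, minus strand: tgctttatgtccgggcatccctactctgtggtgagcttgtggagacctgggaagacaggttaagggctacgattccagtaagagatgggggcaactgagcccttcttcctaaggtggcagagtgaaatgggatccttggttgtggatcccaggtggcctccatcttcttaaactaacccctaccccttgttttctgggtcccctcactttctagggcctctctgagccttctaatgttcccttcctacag
Anxa1, chr1:227303733-227303982, minus strand: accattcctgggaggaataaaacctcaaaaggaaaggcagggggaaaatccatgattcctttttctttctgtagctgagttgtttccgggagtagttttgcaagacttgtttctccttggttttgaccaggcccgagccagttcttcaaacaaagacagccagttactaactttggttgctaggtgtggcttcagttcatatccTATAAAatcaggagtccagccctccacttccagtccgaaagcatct

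The window of Basp1 held 4 matches to GGGCGG, of which those starting 70 and 66 bases before the start overlap, and 30 CG dinucleotides, against a median of 5 over 33469 windows of the same length. That of Gadd45a held 1 match to the same motif, read on the other strand, and 10 CG dinucleotides. That of Ecel1 held no match to any of the motifs and 2 CG dinucleotides. Anxa1 held a TATA box 46 bases before the start, no match to GGGCGG and 3 CG dinucleotides. The starts used for Ecel1 and Anxa1 lie 1936 and 3007 bases inside their gene records, so these windows may not be promoters. Whether the promoters of Basp1, Gadd45a and Ecel1 share such features therefore cannot be read here. Of all windows, 30.5% held GGGCGG, 12.9% TATAAA, 6.34% TGANTCA, 1.59% TGACGTCA and 7.67% TTCNNNGAA. The last 3 motifs were not matched in these 4 windows, which says only that these letters are not there. In that of Sprr1a TGANTCA was matched at 2 positions.

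Regulators and partners of the list were read from the same fit. Of 9 transcription factors of the axotomy response, 5 were lower and 4 higher in HDACI, where 46.7% of all probe sets were lower. Their median difference was -0.03, with 0 past an unadjusted p of 0.05 by limma. Atf3, the hallmark transcription factor of axotomized neurons, differed by -0.05 ± 0.09, Sox11 by -0.09 ± 0.10, Klf7 by -0.07 ± 0.09 and Klf6 by -0.03 ± 0.05. Jun, which dimerizes with Atf3, differed by 0.07 ± 0.05 and Cebpd by 0.08 ± 0.06. With each array left out in turn Sox11 differed by -0.20 (without vehicle replicate 1) to -0.04 (without vehicle replicate 3). Atf3 was lowest in HDACI replicate 4 (12.41) and vehicle replicate 1 (12.42), the arrays that were also lowest for Ecel1. Without HDACI replicate 4 its difference was 0.0041, and with the neuron score as a covariate the differences of Atf3 and Klf7 were 0.01 and 0.0028, so no direction can be given for these 2 factors.

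Of 34 measured growth-associated genes outside the list, such as stathmins, tubulins, adhesion molecules and injury-induced peptides, 28 were lower and 6 higher in HDACI. Among all probe sets 46.7% were lower. The median of the 34 genes was -0.05, and the count of directions was not tested. The score of this list overlapped between the groups, at -0.07 to 0.01 in HDACI and -0.07 to 0.07 in vehicle. The lowest vehicle array was replicate 1. By limma 1 of them passed an unadjusted p of 0.05, and it was lower, beside 1.93% of all probe sets. This was Npy, a neuropeptide that large sensory neurons make after injury, with 13.32, 13.27, 13.36 and 13.29 in HDACI and 13.35, 13.45, 13.48 and 13.48 in vehicle. Only vehicle replicate 1 reached the HDACI range. The difference was -0.13 ± 0.05 (unadjusted p = 0.0241 and adjusted p = 1.0 by limma, exact permutation p = 0.0571), and the unadjusted p was no longer under 0.05 in 6 of 22 other settings, 4 of them with 1 array left out. Stmn1, a stathmin like Stmn4, had non-overlapping groups, 12.67 to 12.73 in HDACI and 12.75 to 12.80 in vehicle. Its difference was only -0.06 ± 0.04 (unadjusted p = 0.151 by limma, exact permutation p = 0.0286, the smallest possible). It was 1 of 34 genes without overlap, beside 2.1% of all probe sets. The gastrin and cholecystokinin receptor Cckbr differed by -0.28 ± 0.13, the neuropeptide Vip by -0.33 ± 0.16, Nrn1, a neuritogenic protein of the cell surface, by -0.35 ± 0.19 and the calcium channel subunit Cacna2d1 by -0.12 ± 0.07. For Nrn1 vehicle replicate 4 stood at 9.66, against 8.60 to 8.84 in the other 7 arrays. The urokinase receptor Plaur differed by 0.12 ± 0.07. Without HDACI replicate 4, Vip differed by -0.19 and Plaur by 0.07. Without vehicle replicate 4 Nrn1 differed by -0.13, and without vehicle replicate 3 Cacna2d1 differed by -0.07.

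**Figure D5:**
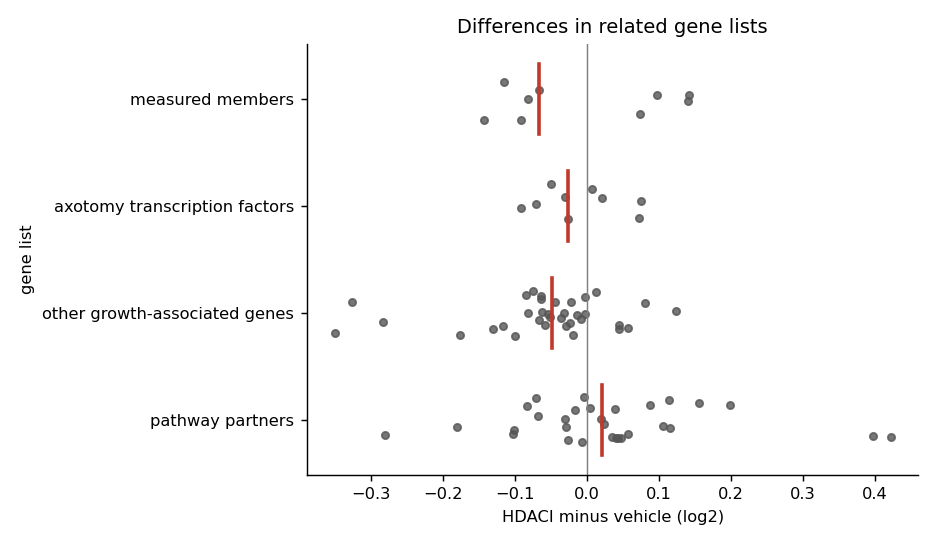
Each point is 1 gene, placed by its difference HDACI minus vehicle (x axis, log2) in 1 of 4 lists (y axis), with the list median in red and heights within a list drawn at random. Of the growth-associated genes 28 of 34 lie below 0, beside 46.7% of all probe sets, a count that was not tested. The medians of all 4 lists lie within 0.1 of 0.

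Partners of single members were the receptors, relatives and opposing enzymes of their pathways. Of these, 13 of 30 were lower and 17 higher, beside 46.7% of all probe sets lower, with a median of 0.02. By limma 1 passed an unadjusted p of 0.05, and it was higher, beside 1.61% of all probe sets. It was Gadd45b, the relative of Gadd45a, which measured 9.33, 9.40, 9.44 and 9.39 in HDACI and 9.27, 9.28, 9.23 and 9.33 in vehicle. The groups did not overlap, although the margin was under 0.01, and the difference was 0.11 ± 0.04 (unadjusted p = 0.0302 and adjusted p = 1.0 by limma, exact permutation p = 0.0286), and the unadjusted p was no longer under 0.05 in 9 of 22 other settings, 5 of them with 1 array left out. Cdkn1a, which encodes the cell cycle inhibitor p21 and acts beside the Gadd45 genes in growth arrest, also had non-overlapping groups. It measured 9.93, 9.94, 9.85 and 9.996 in HDACI and 10.06, 10.64, 10.06 and 10.07 in vehicle, a difference of -0.28 ± 0.13 that was -0.13 without vehicle replicate 2. For Cdkn1a the unadjusted p was 0.0560 by limma and the exact permutation p was 0.0286. Groups did not overlap for 2 of the 30 partners, beside 2.1% of all probe sets.

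For the arginine pathway of Arg1, the second arginase Arg2 differed by -0.18 ± 0.09 and ornithine aminotransferase Oat by -0.08 ± 0.05, while Nos2, the inducible nitric oxide synthase that uses the same substrate, differed by 0.40 ± 0.19. For Fst, the activin subunit gene Inhba differed by 0.42 ± 0.30. HDACI replicate 4 was the highest array for Inhba (10.39) and Nos2 (8.59) and the lowest for Arg2 (8.18), and without it the differences were 0.12, 0.20 and -0.12. The annexin Anxa3 differed by 0.16 ± 0.10 (0.08 without vehicle replicate 4), and by 0.09 ± 0.09 Csf1r, the receptor of Csf1, named for that role after its values were seen. Every named gene of these 3 lists had an adjusted p of 1.0.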

How the data were processed

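Affymetrix Rat Gene 1.0 ST arrays were hybridized with total RNA of 8 samples, 4 per group, and each sample's group and replicate number were read from its title. RMA was run by the authors (background correction, quantile normalization between arrays, summary per probe set) with the Bioconductor package oligo, and the deposited values are on a log2 scale. Its version is not given in the sources used here. This scaling hides a change shared by all transcripts and compresses differences of dim probe sets. Arrays have no read depth, and their number limits the precision.

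Of 28826 probe sets, 15209 carried 1 gene symbol, 306 several and 13311 none in the platform annotation. The difference HDACI minus vehicle was fitted without block or covariate in limma 3.58.1 (R 4.3.3) by lmFit and eBayes, and two-sided p-values were adjusted by Benjamini and Hochberg's method across the 28826 probe sets. The script was tested on simulated data. Correlations over the 8 arrays were tested with exact permutations and adjusted over the 36 pairs of members. No array pair shared more than 0.0486% identical values.

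The members and gene lists were chosen with earlier results of these data known. Named were all members, the genes of the 3 related lists past an unadjusted p of 0.05 with up to 6 more each by smallest p, and for each member the 2 genes with the most similar pattern. As alternatives the fit took replicate number as block, a filter at the 30th percentile (6.95), probe sets with 1 symbol, 3 scalings, intensity trend, robust variances, array weights, 3 marker scores as covariates and each array left out, and after seeing the data 2 pairs of arrays left out. The same-numbered arrays of the groups did not deviate together (r = -0.28 to 0.01), so the numbers were not taken as pairs.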

Additional observations from a re-analysis of the deposited data

Results flagged for a closer look

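Each named gene was checked for an array far from the others of its group of 4, by the gap to its nearest neighbor over the range of the group against Dixon's 95% critical value. Of the 58 groups tested, 6 were flagged, where chance flags about 1 in 20. None of these was a group of the 9 measured axon regeneration genes. Vehicle replicate 1, the array highest in skeletal muscle genes, stood low for Klf7 (12.05 against 12.38 to 12.44), Atf3 (12.42 against 12.65 to 12.70) and Nos2 (7.39 against 7.64 to 7.70). Vehicle replicate 2 stood high for Cdkn1a at 10.64, against 10.06 to 10.07 in the other vehicle arrays. HDACI replicate 4 stood low for Arg2 (8.18 against 8.43 to 8.46), and HDACI replicate 1 high for Nrn1 (8.72 against 8.60 to 8.62).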

How the results depend on the processing

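Of 22 other settings of the fit, 5 leave a difference as it is by construction. In the other 17, the 153 differences of the 9 measured genes kept their direction, and in none of the 22 was an adjusted p of these genes under 0.05 by limma. With an adjusted p under 0.05, 0 probe sets passed in every setting. Members past an unadjusted p of 0.05 numbered 0, but 2 with array weights (Basp1 and Stmn4, beside 7.09% of all probe sets), 2 with the skeletal muscle score (Gap43 and Basp1, beside 4.1%) and 0 to 1 with 1 array left out (1, Basp1, without vehicle replicate 1, beside 6.1%). Without HDACI replicate 4 and vehicle replicate 1 together, a choice made after seeing the data, it was 1, again Basp1 (unadjusted p = 0.0356, beside 4.72%). With the replicate number as a block the count was 0 and 5 of 9 genes were lower, as without it, and Stmn4 differed by -0.11, while Npy and Gadd45b had unadjusted p-values of 0.0579 and 0.0846. Signs turned for Atf3 (0.0041 without HDACI replicate 4, 0.00998 with the neuron score) and Klf7 (0.0028 with the neuron score), and the cause was not tested. Of the 36 correlations 4 passed an adjusted p of 0.05, 1 after median centring and 1 to 3 with 1 array left out, and in each of these settings Stmn4 and Gadd45a passed. These settings for correlations were added after seeing the data. A mean over probe sets changed nothing, since each gene had 1.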

Other observations

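The 9 measured genes were set against 7 marker scores over the 8 arrays, 63 relations in all, and 0 passed adjustment for Pearson's r or Spearman's rho. The largest coefficients were those of Fst and Anxa1 with the fibroblast and meningeal score, at r = 0.853 and 0.850 (rho 0.762 and 0.810). Their exact permutation p was 0.00265 and 0.00806 for r (adjusted p = 0.154 and 0.169). Gadd45a and Stmn4 ran against the satellite glia score at r = -0.839 and -0.797 (rho -0.714 each, exact permutation p = 0.00489 and 0.0117 for r, adjusted p = 0.154 and 0.185). The 6 markers of that score did not move together, as 3 were lower and 3 higher in HDACI. In HDACI replicate 4 Gja1 (10.21) and Apoe (13.60) were at their highest and Kcnj10 (10.38) at its lowest. Without the 2 arrays farthest from the median r was 0.896 for Fst, 0.463 for Anxa1, -0.487 for Gadd45a and -0.349 for Stmn4. The skeletal muscle score, which separated vehicle replicates 1, 2 and 4 from the rest, correlated with the 9 genes at -0.456 to 0.169 over all arrays. As this score differed between the groups, the coefficients after removal of each group's mean were further from 0 for some genes, at -0.753 for Gap43, -0.638 for Basp1 and -0.528 for Ecel1. In the 4 vehicle arrays these were -0.876, -0.714 and -0.807, and in the 4 HDACI arrays -0.273, 0.689 and 0.785. They were not tested.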
